A study of Mus musculus with 3 samples.

Results

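The 10 genes described here are the members of the E2F and retinoblastoma families that were taken by symbol from both deposited tables: E2f1, E2f2, E2f3, E2f4, E2f6, E2f7 and E2f8, and the pocket protein genes Rb1, Rbl1 and Rbl2. They are 10 of 15058 genes listed in either table, and all 10 were above 1 CPM, a count scaled to library size, in every library. The rule goes by symbol and uses no measured value. RNA of sorted mouse erythroblasts from the peripheral blood of E10.5 embryos was sequenced as 3 libraries, 1 in each of 3 groups. The Drosha-null library came from CD71+Ter119 high cells of Drosha fl/fl;cdh5-cre+ embryos, whose Drosha abundance is labelled null. The Ter119-low library came from CD71+Ter119 low cells of embryos with the same genotype, labelled as abundant in Drosha as the wild type. The control library came from CD71+Ter119 high cells of Drosha fl/fl or Drosha fl/+ embryos, labelled WT. All groups therefore carried at least 1 floxed Drosha allele, and the deleting Cre was driven by Cdh5, a gene of endothelial cells, from which blood cells of the embryo arise. Cells of 5 embryos were pooled, so the libraries hold no measure of the spread between embryos.

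E2F proteins bind the promoters of cell cycle genes, most of them as dimers with a DP partner. In quiescent or differentiating cells the pocket proteins Rb, p107 and p130, encoded by Rb1, Rbl1 and Rbl2, hold E2Fs in repressive complexes, until cyclin-dependent kinases phosphorylate them and release the genes for S phase. In the red cell lineage of the mouse, loss of Rb1, E2f2 or E2f4 is known to disturb the last divisions or the maturation of erythroblasts. Drosha is the nuclear nuclease that starts the maturation of most microRNAs, and several microRNA families are known to act on E2F genes.

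Total counts were 9325814 in the Drosha-null, 9418474 in the Ter119-low and 9497425 in the control library. Drosha itself had 122 counts in the Drosha-null library, 244 in the Ter119-low library and 324 in the control library, a log2 ratio of Drosha-null to control of -1.81 (95% counting interval -2.13 to -1.51) and of Ter119-low to control of -0.49 (-0.74 to -0.25). The Drosha-null library had the fewest, as its label has it, but was not at 0, and the tables do not separate the floxed exons from the rest. The Ter119-low library, labelled as abundant as the wild type, lay below the control by less than 2-fold. The 10 erythroid markers, headed by the embryonic globins, were detected in every library and summed to 141170 CPM in the Drosha-null, 241383 CPM in the Ter119-low and 278156 CPM in the control library. Counts were scaled by TMM, which sets the bulk of genes level, and the words higher and lower, for a gene said to be called, mean a ratio between libraries of 2-fold or more with an exact 95% counting interval off 1. Intervals cover counting error only, and with 1 library a group there is no replicate check and no test of any difference. Both comparisons with the control share the control library, and in these bulk samples fewer cells of a type and less RNA per cell cannot be told apart.

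Of the 10 members, 2 were higher and 2 lower in the Drosha-null library than in the control, where 20.2% of the 10769 genes measured were called (12.4% higher and 7.79% lower). The 2 higher members were the pocket protein gene Rb1 and the atypical repressor gene E2f7, each about 3.5-fold, and the 2 lower ones were E2f2 and E2f4, each at about 0.48 to 0.49 of the control. The median log2 ratio of the members was 0.18, beside -0.02 for all genes. Scaling by total counts instead of TMM adds 0.43 to every log2 ratio of this comparison, the median of all genes included, which becomes 0.41. Under that scaling E2f2 and E2f4 stay below the control but are no longer called (-0.59 and -0.63), Rbl1 is called higher (1.04), and E2f1 and E2f8 change sign. In the Ter119-low library none of the 10 members was called against the control, where 5.66% of 10591 genes were (2.9% higher and 2.76% lower), and the members' median log2 ratio was 0.03 beside 0.00 for all genes. The Ter119-low and control cells differ in the sorting gate as well as the genotype, so gate and genotype cannot be told apart in that comparison.

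**Figure D1:**
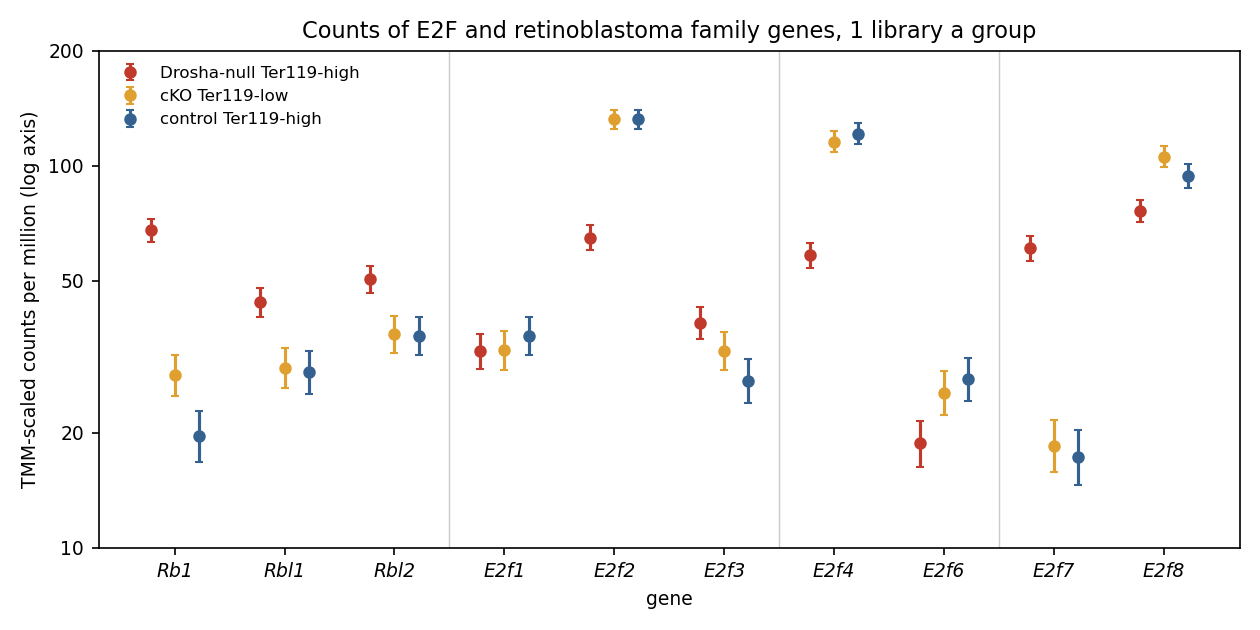
TMM-scaled CPM of each member (log axis) in the Drosha-null, Ter119-low and control libraries, 1 point a library with its exact 95% Poisson counting interval. The Drosha-null points of Rb1 (67.8 CPM) and E2f7 (60.8 CPM) lie far above the others, and those of E2f2 (64.9 CPM) and E2f4 (58.2 CPM) far below.

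The pocket protein genes all had their highest counts in the Drosha-null library. Rb1, which encodes the retinoblastoma protein (GRCm38, chr14:73183673-73325822, minus strand), had 755 counts in the Drosha-null library, 252 in the Ter119-low library and 165 in the control library. The Drosha-null value was higher than both others, and the Ter119-low value lay between. Its log2 ratio of Drosha-null to control was 1.78 (1.54 to 2.04), which is 3.44-fold (2.91 to 4.11) and above 94.7% of all genes measured. Against the Ter119-low library it was 1.26 (1.05 to 1.47), also called, in a comparison where 16.8% of 10795 genes were called. The Ter119-low library exceeded the control by 0.52 (0.24 to 0.82), the largest of the members' ratios in that comparison, but under 2-fold.

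Rbl1, which encodes p107 (chr2:157145893-157204534, minus strand), had 489 counts in the Drosha-null, 264 in the Ter119-low and 242 in the control library. Rbl2, which encodes p130 (chr8:91070057-91123844, plus strand), had 562 counts in the Drosha-null, 323 in the Ter119-low and 302 in the control library. For both genes the Drosha-null library stood above the other 2, which were close to each other. The log2 ratio of Drosha-null to control was 0.61 (0.38 to 0.84) for Rbl1 and 0.49 (0.28 to 0.70) for Rbl2, so neither reached 2-fold. The ratio of Ter119-low to control was 0.04 (-0.22 to 0.30) for Rbl1 and 0.01 (-0.22 to 0.24) for Rbl2.

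The balance within the pocket proteins can be read without any scaling between libraries, from the counts of 2 genes in the same library. There were 1.54 counts of Rb1 for each count of Rbl1 in the Drosha-null library (1.38 to 1.73), 0.955 in the Ter119-low library (0.80 to 1.14) and 0.682 in the control library (0.556 to 0.834). The Drosha-null interval overlapped neither of the others. The ratio of Rbl1 to Rbl2 was 0.870 in the Drosha-null library (0.769 to 0.984), 0.817 in the Ter119-low library (0.692 to 0.965) and 0.801 in the control library (0.674 to 0.952), and these intervals overlapped. Rb1 therefore departed from Rbl1 and Rbl2, while those 2 kept a ratio that counting error does not separate.

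Among the activator genes, which drive entry into S phase, E2f2 stood apart. E2f2 (chr4:136172394-136196057, plus strand), the member known for its part in the erythroid cell cycle exit of the mouse, had 723 counts in the Drosha-null library, 1178 in the Ter119-low library and 1112 in the control library. The Drosha-null library was low and the other 2 were close together. The log2 ratio of Drosha-null to control was -1.03 (-1.17 to -0.89), a 2.04-fold lower level (1.86 to 2.24), and that of Drosha-null to Ter119-low was -1.03 (-1.16 to -0.89). The ratio of Ter119-low to control was -0.00 (-0.12 to 0.12). The TMM-scaled levels were 64.9, 132 and 132 CPM in the Drosha-null, Ter119-low and control libraries.

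E2f1 (chr2:154559407-154569892, minus strand) had 364 counts in the Drosha-null, 293 in the Ter119-low and 301 in the control library. After scaling the 3 libraries were alike within counting error, with a log2 ratio of Drosha-null to control of -0.13 (-0.36 to 0.09), which turns to 0.30 with total-count scaling. E2f1 was the one member with fractional deposited counts (363.61, 292.78 and 301.35 in the same order of libraries), for which the tables give no reason, and its counts are uncertain by the way they were made. E2f3 (chr13:29906575-29986063, minus strand) had 432 counts in the Drosha-null, 292 in the Ter119-low and 230 in the control library. Its log2 ratio of Drosha-null to control was 0.50 (0.27 to 0.74) and that of Ter119-low to control 0.26 (0.01 to 0.52), in neither case called.

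Within single libraries the activators were therefore mixed in other proportions. There were 0.598 counts of E2f3 for each count of E2f2 in the Drosha-null library (0.529 to 0.674), 0.248 in the Ter119-low library (0.217 to 0.282) and 0.207 in the control library (0.179 to 0.239). E2f1 had 0.503 counts for each count of E2f2 in the Drosha-null library (0.443 to 0.572), 0.249 in the Ter119-low library (0.218 to 0.283) and 0.271 in the control library (0.238 to 0.308). In both ratios the Drosha-null library was higher than the other 2, with intervals that did not overlap theirs.

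E2f4 (chr8:105297663-105305370, plus strand) encodes the E2F that carries p107 and p130 to promoters in non-dividing cells and is needed for fetal red cell formation in the mouse. It had 649 counts in the Drosha-null library, 1031 in the Ter119-low library and 1020 in the control library. The Drosha-null library was again the low one. The log2 ratio of Drosha-null to control was -1.06 (-1.20 to -0.92), a 2.08-fold lower level (1.89 to 2.30), with 7.48% of the genes measured lying lower. Against the Ter119-low library it was -0.99 (-1.13 to -0.85), just short of 2-fold. The ratio of Ter119-low to control was -0.07 (-0.20 to 0.06).

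E2f6 (chr12:16810963-16839742, plus strand) encodes a repressor that binds no pocket protein and works with Polycomb proteins. It had 209 counts in the Drosha-null, 227 in the Ter119-low and 232 in the control library, with a log2 ratio of Drosha-null to control of -0.56 (-0.83 to -0.28), not called. E2f5, the remaining E2F gene in the tables and not a member here, had 99 counts in the Drosha-null, 106 in the Ter119-low and 100 in the control library, a log2 ratio of Drosha-null to control of -0.42 (-0.84 to -0.01).

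The atypical genes E2f7 and E2f8 encode repressors that bind DNA without a DP partner and without pocket proteins, and that are known to overlap in function in the mouse embryo. E2f7 (chr10:110745439-110787384, plus strand) had 677 counts in the Drosha-null library, 165 in the Ter119-low library and 145 in the control library. The Drosha-null library was high and the other 2 did not differ beyond counting error. The log2 ratio of Drosha-null to control was 1.81 (1.55 to 2.08), which is 3.51-fold (2.94 to 4.24), that of Drosha-null to Ter119-low was 1.71 (1.47 to 1.97), and that of Ter119-low to control was 0.10 (-0.23 to 0.43).

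E2f8 (chr7:48866429-48881596, minus strand) had 848 counts in the Drosha-null, 941 in the Ter119-low and 790 in the control library. Its log2 ratio of Drosha-null to control was -0.31 (-0.45 to -0.16), which turns to 0.13 with total-count scaling, and it was called in no comparison. The pair thus parted: there were 0.798 counts of E2f7 for each count of E2f8 in the Drosha-null library (0.721 to 0.884), 0.175 in the Ter119-low library (0.148 to 0.207) and 0.184 in the control library (0.153 to 0.219). This ratio needs no scaling between libraries.

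**Figure D2:**
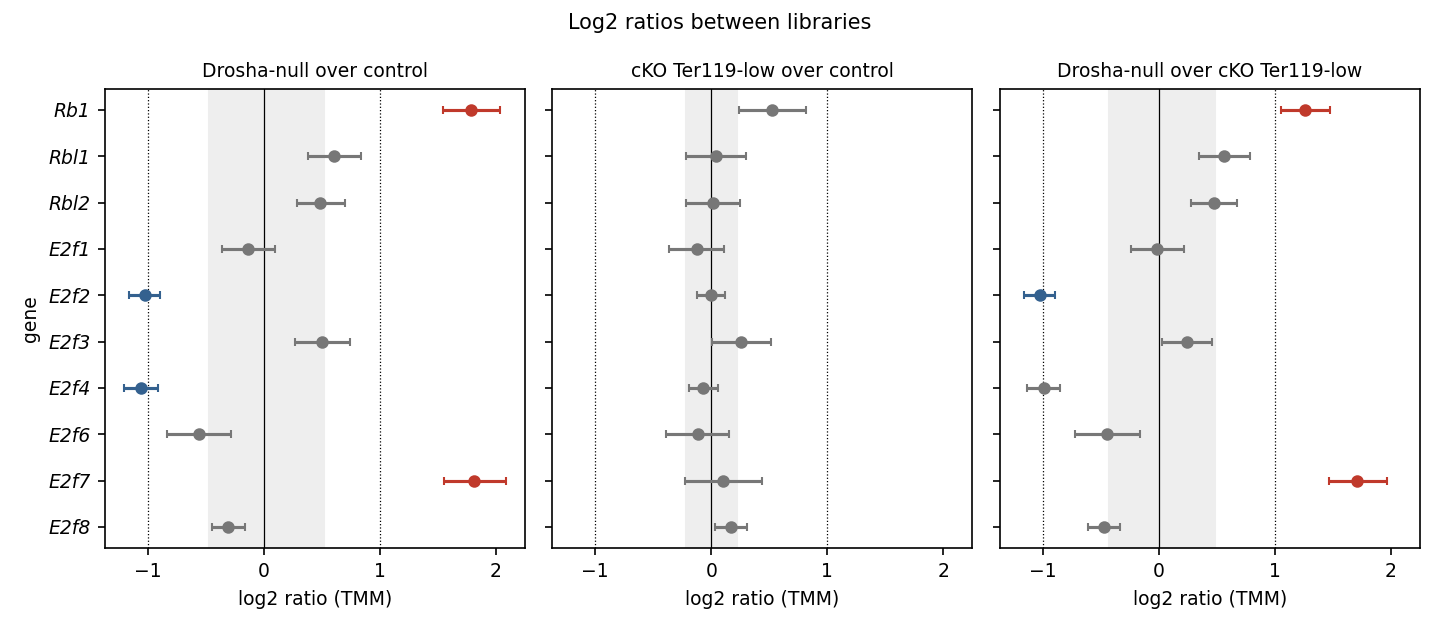
Log2 ratios of TMM-scaled counts for each member in the 3 comparisons between libraries, with exact 95% counting intervals. Rb1 and E2f7 lie past 2-fold above and E2f2 past 2-fold below in both comparisons of the Drosha-null library, E2f4 only in the one with the control, and no member lies past 2-fold between the Ter119-low and control libraries.

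In the authors' deposited table, which set FPKM values (fragments per kilobase of gene length, scaled to library size) of the Drosha-null library over the control without TMM, the log2 ratio was 2.22 for Rb1, 2.25 for E2f7, -0.59 for E2f2 and -0.62 for E2f4. These are the same directions with the offset of total-count scaling.

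Levels between genes were compared as TPM, a length-scaled share of each library, computed from counts divided by the gene length in the tables. For 2 members the length differed between the cKO1 and cKO2 tables, Rbl1 (4123 and 3817 bases) and E2f6 (2469 and 2455 bases). The mean was used throughout, and the intervals do not cover this difference. In the control library E2f4 was the most abundant member at 69.7 TPM, followed by E2f2 at 32.4 and E2f8 at 29.5 TPM, whose counting intervals overlapped. E2f1 at 16.9 and E2f6 at 13.0 TPM came next. Rbl2 at 8.53 and Rbl1 at 8.43 TPM could not be told apart, and E2f3 at 6.23, Rb1 at 4.92 and E2f7 at 3.66 TPM came last, with neighbours overlapping. Rb1 was thus the least abundant pocket protein gene of the control library, and its interval overlapped that of E2f7.

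The Ter119-low library had E2f4 first at 74.4 TPM, then E2f8 at 37.1 and E2f2 at 36.3 TPM, which overlapped, E2f1 at 17.4 and E2f6 at 13.5 TPM. Rbl1 at 9.71, Rbl2 at 9.64, E2f3 at 8.35 and Rb1 at 7.93 TPM followed, each overlapping its neighbour, and E2f7 was again last at 4.4 TPM.

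The order of the Drosha-null library was different below the first places. E2f4 led at 54.3 TPM and E2f8 followed at 38.8 TPM. Rb1 came next at 27.5 TPM, and its interval overlapped that of E2f2 at 25.8 TPM. E2f1 at 25, E2f7 and Rbl1 at 20.9 each and Rbl2 at 19.4 TPM followed, with neighbours overlapping. E2f6 and E2f3 came last, at 14.4 and 14.3 TPM. Rb1 was therefore the most abundant pocket protein gene of this library.

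Put as shares, Rb1 made up 40.6% of the summed TPM of the pocket protein genes in the Drosha-null library, 29.1% in the Ter119-low library and 22.5% in the control library. Of the summed TPM of the 7 E2F members, E2f4 took 28.1% in the Drosha-null, 38.9% in the Ter119-low and 40.7% in the control library. E2f7 and E2f8 together took 30.8% in the Drosha-null, 21.7% in the Ter119-low and 19.3% in the control library. The activators E2f1, E2f2 and E2f3 kept a like share as a group, 33.7% in the Drosha-null, 32.4% in the Ter119-low and 32.4% in the control library, although E2f2 alone was lower. For each TPM of pocket protein genes there were 2.85 TPM of E2F members in the Drosha-null, 7.01 in the Ter119-low and 7.84 in the control library.

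**Figure D3:**
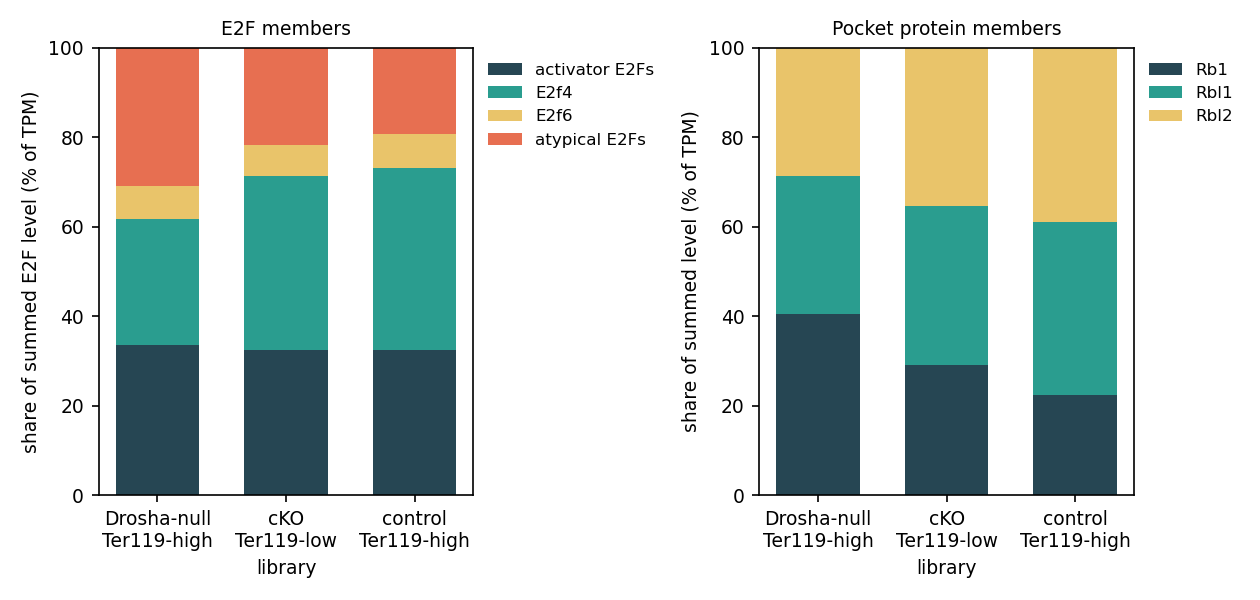
Shares of the summed length-scaled level (% of TPM) of the E2F members, left, and of the pocket protein genes, right, in each library. The E2f4 share is 28.1% in the Drosha-null library against 40.7% in the control library, and the Rb1 share 40.6% against 22.5%.

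Gene length went along with the ratio between the Drosha-null and control libraries, so each member was also set beside genes of its own length. Over 10 classes of gene length the median log2 ratio of all genes went from -0.59 in the shortest class, up to 1158 bases, to 0.29 in the longest, from 6299 bases. Less the median of its class, the log2 ratio of Drosha-null to control was 1.62 for Rb1, 1.59 for E2f7 and -1.19 for E2f2, all still past 2-fold. E2f4, one of the shorter members at 2024 bases, came to -0.91 and was no longer called. Rbl1 was at 0.55, Rbl2 at 0.27 and E2f3 at 0.28. The part of RNA quality in the length trend was not tested.

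**Figure D4:**
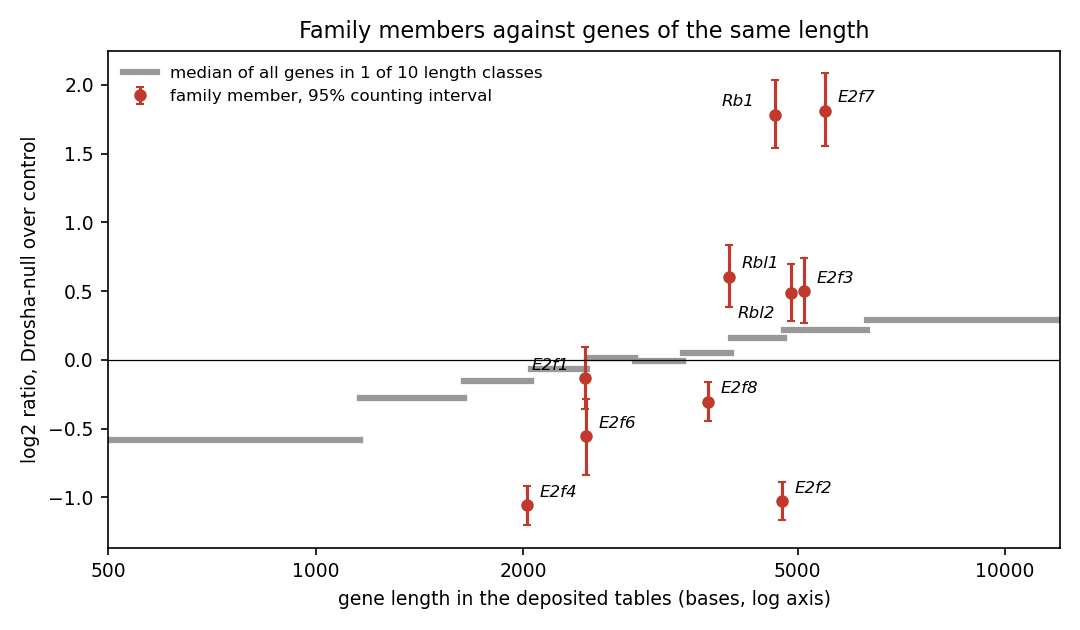
Log2 ratio of Drosha-null to control of each member against its gene length in the deposited tables (bases, log axis), with 95% counting intervals and, as grey bars, the median of all genes in each of 10 length classes. Rb1 and E2f7 lie far above, and E2f2 far below, the median of genes of their length.

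Summed markers of the erythroid lineage, cardiac muscle and endothelium differed between the Drosha-null and control libraries. Macrophage and progenitor sums were close, but single progenitor markers went both ways. Of the 10 erythroid markers 4 were lower in the Drosha-null library than in the control and none higher, with a median log2 ratio of -0.84. Of all genes 12.4% were higher and 7.79% lower in this comparison. The 7 cardiac muscle markers summed to 28.7 CPM in the Drosha-null, 6.40 in the Ter119-low and 8.93 in the control library, with Myh6 at 0 counts in the Drosha-null library, Tnnt2, Myh6 and Smyd1 at 0 in the Ter119-low library and Myh7 and Smyd1 at 0 in the control library. Ttn alone gave 16.2 CPM of the Drosha-null sum. Of the 4 measured, 3 were higher in the Drosha-null library than in the control, Ttn, Actc1 and Smyd1. Tnnt2 was level, at a log2 ratio of -0.09 on 20 and 16 counts. Among the 3 higher ones, Smyd1 passed the 1 CPM filter only through the Drosha-null library. The 7 endothelial markers, all detected, summed to 21.5 CPM in the Drosha-null, 10.6 in the Ter119-low and 9.88 in the control library. Of these 7, 2 were higher in the Drosha-null library than in the control, Pecam1 and Tek. Both passed the 1 CPM filter only through the Drosha-null library, with 0.357 and 0.476 CPM in the control. Macrophage markers summed to 4.67, 2.69 and 5.12 CPM, megakaryocyte markers to 15.8, 13.9 and 12 CPM and progenitor markers to 8.17, 5.61 and 8.33 CPM in the Drosha-null, Ter119-low and control libraries. Of 5 progenitor markers measured against the control, 1 was higher in the Drosha-null library (Cd34, 26 and 8 counts) and 1 lower (Hoxa9, 3 and 14). Of 3 megakaryocyte markers measured, 1 was higher (Gp1ba, 39 and 3 counts) and 0 lower. Each passed the 1 CPM filter only through the library where it was high. From these lists Adgre1 and Ptprc were not found under these symbols, so they have no value here. Ppbp was at 0 in the Drosha-null and Ter119-low libraries, Pf4 at 0 in the Drosha-null library and Mrc1 at 0 in the Ter119-low library. The part of these markers in the levels of Rb1, E2f7, E2f2 and E2f4 was not tested.

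Exons of several members overlap exons of other genes on the opposite strand, and whether counting used strand is not given in the sources used here. Rb1 shares 6.78% of its exon bases with Lpar6, which had 26 counts in the Drosha-null, 8 in the Ter119-low and 15 in the control library, and 8.11% with Rcbtb2, which had 42, 46 and 51 counts in the same order. Rbl2 shares 9.17% with Aktip, which had 88, 23 and 49 counts in that order. The part of the shared bases in the counts of Rb1 and Rbl2 was not tested. E2f8 shares 11.2% of its exon bases with Gm2788 and Rbl2 11.8% with Gm45464, neither listed in the tables. For E2f7 the shared part was 0.955%.

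Because the deleted gene serves microRNA maturation, the 3′ UTRs of the members (GENCODE M21, GRCm38) were searched for 7-base matches to the seeds, bases 2 to 8, of 8 microRNAs. These were miR-17-5p, miR-92a-3p, miR-451a, miR-144-3p, let-7a-5p, miR-16-5p, miR-34a-5p and miR-210-3p. The mature sequences are from RefSeq (GRCm38.p6), shown 5′ to 3′ with the seed in capitals. The first 4 sequences shown share 1 seed and belong to the miR-17 family, known to act on E2F genes. The other 3 shown have matches in members called in the Drosha-null library or in E2f8. The sequence of miR-34a-5p, which has a match in the called member E2f2, is not shown.
miR-17-5p: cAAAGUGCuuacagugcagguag
miR-20a-5p: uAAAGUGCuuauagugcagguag
miR-93-5p: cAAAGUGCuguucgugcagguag
miR-106b-5p: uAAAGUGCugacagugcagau
let-7a-5p: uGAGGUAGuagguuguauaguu
miR-16-5p: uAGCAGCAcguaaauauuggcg
miR-144-3p: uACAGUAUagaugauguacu

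The miR-17 seed had matches in 6 of the 10 members: E2f1, E2f2, E2f3, Rb1, Rbl1 and Rbl2, that is the activators and the pocket protein genes. E2f4, E2f6, E2f7 and E2f8 had none. E2f1 and Rbl2 had 2 matches each, in 3′ UTRs of lengths at which 13.3% and 15.3% of genes have any, and the others 1 each, at lengths where 27.0% (E2f2), 29.8% (E2f3), 17.5% (Rb1) and 16.3% (Rbl1) of genes do. The sites of E2f1, E2f2, E2f3, Rbl1 and Rbl2 are shown 5′ to 3′ on the strand of the transcript, with the match in capitals, since these members lie on both sides of the comparison. That of Rb1 is not shown.
E2f1 (chr2:154560204-154560230, minus strand): tgggctctaactGCACTTTtggtgtcc
E2f1 (chr2:154559689-154559715, minus strand): accctccagtctGCACTTTgatttgtt
E2f2 (chr4:136194367-136194393, plus strand): ctcagtggggcaGCACTTTttgcttgt
E2f3 (chr13:29908070-29908096, minus strand): cagaagacaccgGCACTTTaaactctg
Rbl1 (chr2:157147469-157147495, minus strand): tgcctgatcaaaGCACTTTtggattgt
Rbl2 (chr8:91123139-91123165, plus strand): gtgtaattggtgGCACTTTatggctgt
Rbl2 (chr8:91123200-91123226, plus strand): atatttatgatgGCACTTTctatggtg

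The members with these sites lay on both sides of the control in the Drosha-null library. Against the control the log2 ratio was 1.78 for Rb1, 0.61 for Rbl1, 0.50 for E2f3 and 0.49 for Rbl2, but -0.13 for E2f1, with 2 sites, and -1.03 for E2f2. E2f7, the member with the highest ratio, has no miR-17 match. It has 1 match to let-7 and 1 to miR-16, and E2f2, the called member with the opposite direction, has 2 let-7 matches. Of genes with 3′ UTRs of like length, 14.9% have a let-7 match and 38.3% a miR-16 match at the length of E2f7, and 16.6% have a let-7 match at that of E2f2.
E2f7 (chr10:110786988-110787014, plus strand): tgaggggatgtgCTACCTCaaaccatg
E2f7 (chr10:110787192-110787218, plus strand): atgttcatctatTGCTGCTtgccgctt
E2f2 (chr4:136193042-136193068, plus strand): tcctgcatctgtCTACCTCctcacaga
E2f2 (chr4:136195950-136195976, plus strand): catgtgggtcacCTACCTCctggtttc

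Elsewhere let-7 had 1 match in E2f6, and miR-16 had 2 in E2f3 and 1 in Rbl2. The erythroid microRNA miR-144 had 1 match in Rb1 and 1 in E2f8, whose log2 ratios of Drosha-null to control were 1.78 and -0.31, and of genes with 3′ UTRs of like length 14.4% (Rb1) and 5.08% (E2f8) have one. Its neighbour miR-451a, whose maturation is known to bypass Dicer but to need Drosha, had none in any member. The remaining seeds had 1 match each in E2f3, E2f6 and Rbl2 (miR-92a), 1 in E2f2 and 2 in E2f3 (miR-34a), and none (miR-210). A match is a stretch of letters and was not measured as a site, and E2f4 had no match to any of the 8 seeds.

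E2F genes are known to be regulated by E2Fs themselves, so the RefSeq promoters (GRCm38.p6, 250 bases before to 50 after the start) were searched for the E2F motif, spelled TTTCCCGC, TTTCGCGC, TTTGCCGC or TTTGGCGC, on both strands. Promoters were at hand for 8 members, all but Rb1 and E2f4, as 10 windows, with 2 each for E2f2 and E2f3. The starts are those of RefSeq and differ from the GENCODE gene starts given above for some members, E2f1 and E2f2 among them. The E2f1 window lies wholly inside the GENCODE gene, so the bases before the GENCODE start of E2f1 were not searched. The windows of E2f2 and E2f3 in which no motif was found also lie inside those genes. The motif was in 4 of the 10 windows, 1 each of E2f2, E2f3, E2f7 and Rbl1, and not in the other windows of E2f2 and E2f3 or in those of E2f1, E2f6, E2f8 and Rbl2. Among all 32851 promoters given, 2.27% held it, and of the 10251 promoters of genes measured here 4.18%. The windows with the motif of E2f7 and E2f2, the called members that have one, are shown 5′ to 3′ with the motif in capitals; in E2f7 it lies on the opposite strand, so the capitals are its reverse complement.
E2f7 (chr10:110745189-110745488, plus strand): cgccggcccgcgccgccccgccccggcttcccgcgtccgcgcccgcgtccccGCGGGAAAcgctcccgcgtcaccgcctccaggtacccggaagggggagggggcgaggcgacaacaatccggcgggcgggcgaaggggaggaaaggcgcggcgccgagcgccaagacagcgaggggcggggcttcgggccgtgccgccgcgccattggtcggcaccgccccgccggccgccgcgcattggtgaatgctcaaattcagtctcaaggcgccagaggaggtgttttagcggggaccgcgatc
E2f2 (chr4:136172024-136172323, plus strand): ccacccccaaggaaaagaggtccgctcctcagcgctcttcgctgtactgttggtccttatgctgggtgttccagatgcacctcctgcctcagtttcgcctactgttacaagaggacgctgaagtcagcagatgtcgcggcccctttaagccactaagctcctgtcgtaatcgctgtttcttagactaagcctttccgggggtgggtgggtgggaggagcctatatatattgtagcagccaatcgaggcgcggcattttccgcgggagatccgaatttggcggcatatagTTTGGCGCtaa

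In E2f7 the motif lies at -198 to -191 from the RefSeq start, and in E2f2 at 40 to 47 after the RefSeq start of the window shown, which lies upstream of the GENCODE gene start. The 4 genes with the motif had log2 ratios of Drosha-null to control of 1.81 (E2f7), 0.61 (Rbl1), 0.50 (E2f3) and -1.03 (E2f2). Those without it in the windows searched had ratios from -0.56 (E2f6) to 0.49 (Rbl2). The motif thus occurred in the highest member and in one of the lowest.

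Genes of the pathway around the family were taken from 10 lists, which hold 116 genes, 103 of them measured against the control in the Drosha-null library. Of these 103, 8 were higher and 5 lower, 12.6% in all beside the 20.2% of all genes, and their median log2 ratio was -0.03 beside -0.02. Of all genes 12.4% were higher and 7.79% lower, the shares to set beside the counts of each list below. With total-count scaling 20 of the 103 were higher and 2 lower, where 25.3% of all genes were called. In the Ter119-low library 1 of 103 was lower than in the control and none higher, where 5.66% of all genes were called. The negative medians given below for the DP partners, the G1/S genes and the E2F6 complex turn positive with the total-count offset of 0.43.

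The partners of the E2F complexes were not called. The DP partner gene Tfdp1 had 432 counts in the Drosha-null, 495 in the Ter119-low and 455 in the control library, a log2 ratio of Drosha-null to control of -0.48 (-0.68 to -0.29). Tfdp2 had 978, 831 and 872 counts in the same order of libraries, a log2 ratio of -0.24 (-0.38 to -0.11). The MuvB core, which joins E2f4 and p107 or p130 in the repressive DREAM complex, had log2 ratios of 0.43 (Lin9), 0.05 (Lin37), -0.17 (Lin52), -0.39 (Lin54) and 0.01 (Rbbp4). Its activating partners Mybl2, encoding B-Myb, and Foxm1 were at -0.67 and 0.21. None of these 9 genes was past 2-fold under TMM, so the lower E2f4 of the Drosha-null library stood beside a MuvB core within 2-fold of the control.

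Among the cyclins, kinases and inhibitors that set the phosphorylation of Rb, 4 of 13 measured genes were higher in the Drosha-null library and none lower. Of all genes 12.4% were higher. All 4 were inhibitors. Cdkn1a, encoding the inhibitor p21, had 729 counts in the Drosha-null, 157 in the Ter119-low and 83 in the control library, a log2 ratio of Drosha-null to control of 2.72 (2.40 to 3.07). The others were Cdkn1c at 1.03 (0.62 to 1.46), with Cdkn1b at 1.01 (0.47 to 1.59) and Cdkn2d at 1.02 (0.56 to 1.51), named after their values were seen. These last 3 lie just past 2-fold. Cdkn2c, another measured inhibitor, was not called, at 0.02 (-1.04 to 1.14) on 19 counts in the Drosha-null and 14 in the control library. It too was named after its value was seen. The most abundant genes of the list, Ccnd3 (cyclin D3) and Cdk4, which phosphorylate Rb, were at -0.49 and -0.62.

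Genes that E2Fs switch on at the start of S phase were mostly near or below the control: of 34, none was higher and 2 were lower. Their median log2 ratio was -0.19, with 26 below 0 under TMM, where 5504 of all 10769 genes measured were below 0. With total-count scaling the median of the list is above 0. The lower ones were Orc1, of the origin recognition complex, with 197 counts in the Drosha-null, 307 in the Ter119-low and 351 in the control library (log2 ratio of Drosha-null to control -1.24, -1.5 to -0.98), and Rrm2, of ribonucleotide reductase, with 755, 1212 and 1149 counts in the same order (log2 ratio -1.01, -1.15 to -0.88). The abundant Pcna and Ccna2 were at -0.21 and 0.36. Rrm2 was level between the Ter119-low and control libraries (-0.01), as E2f2 and E2f4 were.

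The G2/M genes that MuvB complexes regulate had the higher median of 0.42, with 14 of 22 above 0. Of all 10769 genes measured 5265 were above 0. Total-count scaling moves this list median, like that of all genes, by 0.43. Of these 22, none was called higher and 1 lower, Cenpa, a centromere histone, at -1.15 (-1.40 to -0.90). Prc1 was at 0.84, Top2a at 0.56 and Mki67 at -0.56.

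The E2F6 complex had no called member among 12, with a median of -0.20. Its subunits Mga and Cbx3 were at 0.19 and -0.63, Wdr5 at -0.83 and Ring1 at 0.79. Of 10 germline genes that E2f6 is known to silence in mouse cells, 5 were listed and 2 were measured. Stag3 had 1, 4 and 10 counts and Hormad1 2, 1 and 13 counts in the Drosha-null, Ter119-low and control libraries. Their log2 ratios of Drosha-null to control were -3.21 (-9.17 to -0.92) and -2.84 (-6.30 to -0.96), on counts too few to place them. Hormad1 was also the 1 pathway gene called in the Ter119-low library, at -3.25 (-9.19 to -1.05).

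Apoptosis genes that E2F1 is known to induce were above the control in all 6 measured cases, 2 of them called, with a median of 0.79. Casp8 had 175 counts in the Drosha-null, 22 in the Ter119-low and 12 in the control library, a log2 ratio of Drosha-null to control of 3.40 (2.62 to 4.44), and Apaf1, the core of the apoptosome, was at 1.04 (0.75 to 1.35). Bcl2l11 was at 0.76. E2f1 itself was not called in these libraries.

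Of the listed partners of Rb, most of them chromatin proteins, 2 of 10 were higher in the Drosha-null library. Skp2, whose product is not a chromatin protein but binds Rb and marks the inhibitor p27 for degradation, had 851 counts in the Drosha-null, 297 in the Ter119-low and 220 in the control library (log2 ratio of Drosha-null to control 1.54, 1.33 to 1.76). Smarca2 had a log2 ratio of 2.44 (1.5 to 3.70) on 68, 19 and 9 counts in the same order. The more abundant Smarca4 and Brd2 were at 0.21 and -0.18.

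**Figure D5:**
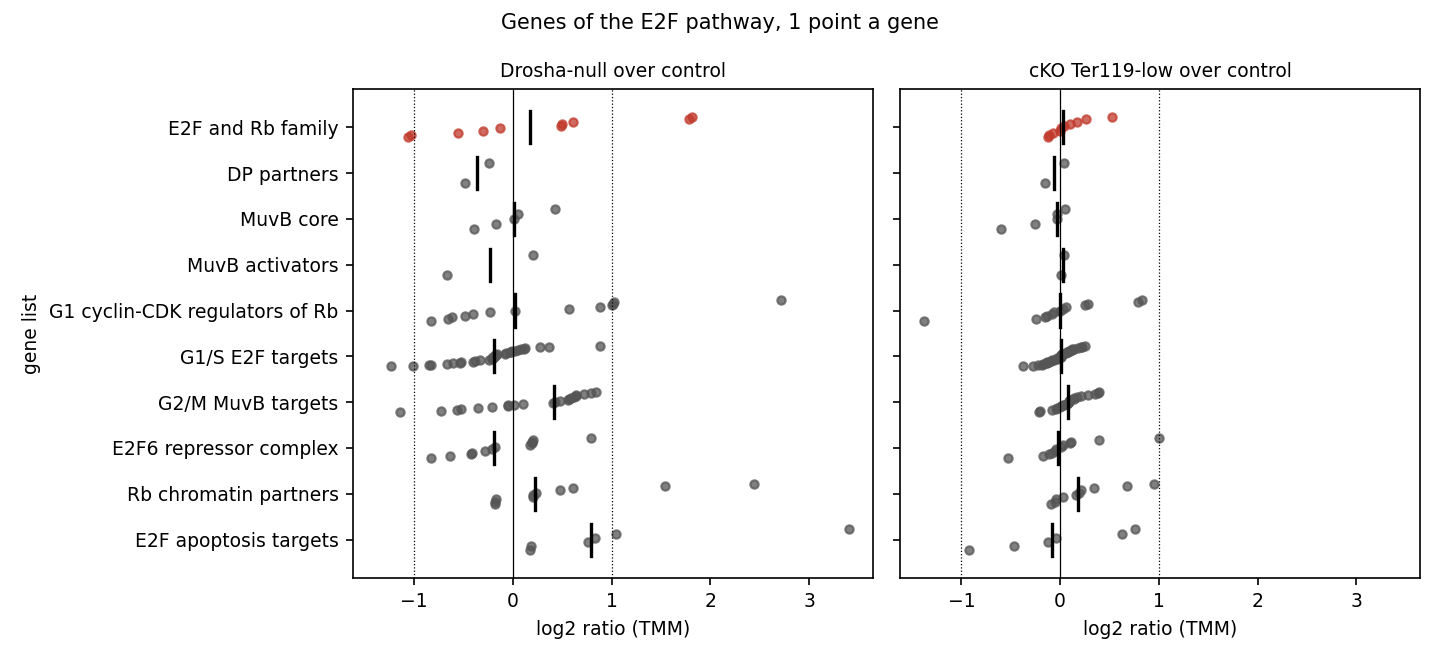
Log2 ratios of TMM-scaled counts to the control for the measured genes of the family (red) and of the pathway lists (grey) in the Drosha-null and Ter119-low libraries, 1 point a gene, with the median of each list as a bar and 2-fold as dotted lines. The germline list, with 2 measured genes, is left out. The points are spread far wider in the Drosha-null library than in the Ter119-low library.

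Against the Ter119-low library, which shares its genotype, the Drosha-null library had 2 members higher (Rb1 and E2f7) and 1 lower (E2f2) of 10, where 10.8% of genes were called higher and 5.94% lower. Of 101 pathway genes measured 8 were higher, including Cdkn1a at 1.89 (1.64 to 2.15), Apaf1 at 1.5 (1.18 to 1.85), Casp8 at 2.64 (2.02 to 3.38), Skp2 at 1.19 (1.0 to 1.39) and Smarca2 at 1.49 (0.77 to 2.33), and Rrm2 was the 1 lower, at -1.01 (-1.14 to -0.87). These pairs of cells differ in the Ter119 gate and in labelled Drosha, which cannot be told apart.

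The pattern over the 3 libraries was also compared between genes, as the distance between log2 CPM values centred on each gene's mean, among 6139 genes with a mean of 10 CPM or more. The members with the widest range were E2f7 and Rb1. The genes nearest to E2f7 were Cd81 (distance 0.02), Slc14a1 (0.03) and D15Ertd621e (0.06), and those nearest to Rb1 were Cdc42bpb (0.03), Pkd1 (0.04) and Twf1 (0.06). The distance between E2f7 and Rb1 was 0.36, and they differed in the Ter119-low library, where E2f7 was at 18.5 CPM beside 17.3 in the control and Rb1 at 28.3 beside 19.6. With 3 libraries such a likeness is a description only.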

How the data were processed

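RNA-seq of 3 libraries, 1 a group, was analysed from 2 tables, each setting a cKO library beside the same control. Each table gives, per the file headers, expected counts (estimated reads of a gene, unscaled) and FPKM values, which the authors derived from them by gene length and library size. The deposited log2 ratios are of those FPKM values. The deposited p-values and FDR scores set single libraries against each other and were not used. The other deposited cells (gene IDs, symbols, lengths and up or down calls) describe the genes. Aligner, counting program and build are, for these tables, not given in the sources used here.

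Joining by gene ID gave 15058 genes (control counts of shared genes differed in 0 cases), and 21 symbols that a spreadsheet had turned into dates were restored. Expected counts were rounded to whole numbers and scaled by TMM (edgeR 4.0.16, R 4.3.3), with factors of 1.19, 0.946 and 0.885 in the Drosha-null, Ter119-low and control libraries. The share of ribosomal RNA was 27.9%, 28.5% and 28.7%, and 3 counts came to 0.269, 0.337 and 0.357 CPM, in the same order. Log2 ratios had 0.5 counts added and exact Clopper-Pearson 95% intervals, for genes with at least 1 CPM in 1 of the libraries compared. DESeq2 1.42.0 served for size factors. The other steps ran in Python 3.11.15 with pandas 2.3.3, SciPy 1.17.1 and NumPy 2.4.6, and plots in matplotlib 3.10.9. Members, lists and motifs were chosen with earlier results of these data known. Named beyond members were Drosha, any other E2f gene, the DP and MuvB core genes, from each other list the 2 most abundant and the 2 with the largest log2 ratios, and the 3 genes most like the 2 most variable members. Alternatives were other scalings, 2 counts added, FPKM, a length correction, other filters and a 1.5-fold threshold. Some results of the pathway lists are not reported here.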

Additional observations from a re-analysis of the deposited data

How the results depend on the processing

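No paired analysis was possible because each group has 1 library, and no library could be left out. Alternatives were scaling by total counts and the log2 ratio of the deposited FPKM values, which is scaled that way. Against the control, 0 members were lower in the Drosha-null library under both (2 with TMM), and against the Ter119-low library 0 under both (1 with TMM). The member median against the control was 0.61 under both (all genes 0.41 and 0.42), and against the Ter119-low library 0.45 under both (all genes 0.32). Pathway genes called against the control numbered 22 and 24 in the Drosha-null library (13 with TMM) and 2 under both in the Ter119-low library (1 with TMM). Of all genes, 25.3% and 25.6% were called in the Drosha-null library (20.2% with TMM). In the Ter119-low library 5.65% and 5.84% of all genes were called (5.66% with TMM). Subtracting the length class median left 1 member lower, E2f2. With 1.5-fold, 34 and 6 pathway genes were called against the control in the Drosha-null and Ter119-low libraries (all genes 37.2% and 10%). Between those 2 libraries 20 were called (9 at 2-fold), beside 33% of all genes (16.8% at 2-fold). With 1.5-fold, 2 members were lower in the Drosha-null than in the Ter119-low library, beside 14.8% of all genes. With 10 CPM, 0 pathway genes were called in the Ter119-low library (all genes 0.489%). Rb1 and E2f7 stayed called higher in the Drosha-null library under every alternative run. Of the summary results 111 held and 18 moved, and of single-gene ratios 137 held and 43 moved. Depth limits the genes with the fewest counts, Lin52, Stag3 and Hormad1 among those named.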
